A study of Mus musculus with 6 samples.

Results

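The clustered protocadherin genes (*Pcdha*, *Pcdhb* and *Pcdhg*) were examined in hippocampal RNA from mice that had received peripheral substance P (SP), a neuropeptide. They were taken by gene symbol, as every *Pcdha*, *Pcdhac*, *Pcdhb*, *Pcdhga*, *Pcdhgb* and *Pcdhgc* gene in the table of counts, which gave 58 of 55421 genes. SP-injected mice were given SP (10 µM, 100 µL) under the skin on 14 days, and vehicle mice were given saline in the same volume. All were wild-type C57BL/6N males of 8 to 10 weeks, with no transgene or deletion in either group. Each group had 3 mice and each mouse gave 1 stranded mRNA library from the hippocampus. Mice carry the numbers 1 to 3 within a group, which the labels give as a batch, so that each SP library has a vehicle library of the same batch.

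Clustered protocadherins are adhesion proteins of the cadherin superfamily that sit on the surface of neurons and bind matching copies on neighbouring membranes. Each neuron switches on a few of the alternate isoforms by random choice of promoters, a choice that involves the insulator protein CTCF, cohesin and DNA methylation, and the resulting mixture acts as a barcode by which a neuron tells its own branches from those of others. The C-type isoforms at the ends of the alpha and gamma clusters are largely not chosen in this random way and are made by many neurons. A bulk library averages over these cells, and fewer cells that express an isoform cannot be told apart from less of its RNA per cell.

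The 3 clusters lie one after another on the plus strand of chromosome 18 (GRCm38, GENCODE M21). The 14 alpha genes, 12 alternate and the C-types *Pcdhac1* and *Pcdhac2*, span 36930184 to 37187661, the 22 beta genes 37264938 to 37524479, and the 22 gamma genes 37661793 to 37841873. Every alpha gene begins at its own variable exon, which encodes the extracellular and transmembrane parts, and runs to the same 3′ constant exons, which encode a shared cytoplasmic tail. The gamma cluster, with 12 A-type, 7 B-type and 3 C-type genes, is built in the same way around another set of constant exons, whereas beta genes have no constant exons. In the longest annotated transcripts, alpha genes had 2860 to 3118 bases in common with at least 10 members of the cluster. For gamma genes this was 2116 to 2122 bases, apart from *Pcdhgc5*, whose longest annotated transcript holds a retained intron and shared 413.

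Reads from the constant exons therefore had to be divided between genes when the counts were estimated. Of the 31-base words in all its annotated transcripts, an alpha gene held 9.32% (*Pcdha4*) to 54.5% that occur in no other gene, a gamma gene 32.5% to 67.0% and a beta gene 77.5% to 100%. The division was visible in the counts, since 96.4% of alpha values and 97.0% of gamma values were not whole numbers (tolerance 0.01), against 22.7% of beta values and 7.78% over all genes with a count. The symbol *Pcdha11* stands for 2 genes in the table. The one that starts at 37010712 (ENSMUSG00000102206) lies where RefSeq (GRCm38.p6) places *Pcdha11*, and the one that starts at 37005203 (ENSMUSG00000007440) lies where it places *Pcdha10*. The annotated spans of *Pcdhb21*, which ends at 37518325, and *Pcdhb22*, which starts at 37517871, overlap on the same strand.

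The libraries held 22349941 to 27605937 counts, of which 20481 to 26639 fell on the 58 genes. A count of 0 allows a level of up to 0.109 to 0.134 CPM (counts scaled to a common library size after TMM normalization), which is 3 counts and covers counting error only. Neuronal and hippocampal marker genes were well above this limit in all 6 libraries. Other markers differed between libraries: the sum of 8 choroid plexus markers was 176 CPM in SP 1 and 2817 to 4750 CPM in the other 5 libraries, and the sum of 8 oligodendrocyte markers was 3621 CPM in SP 2 and 2168 to 2712 CPM in the others.

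Expression of the family was led by the C-type genes. Levels of different genes were compared as CPM per kb of the longest annotated transcript, averaged over the 6 libraries. For *Pcdhgc5* this is the transcript with the retained intron (5777 bases), so its level rests on that length. Summed over the family the levels came to 190.6 CPM per kb, of which the gamma cluster held 133, the beta cluster 29.2 and the alpha cluster 28.5. The 5 C-type genes alone held 82.15. *Pcdhgc5* (26.0 CPM per kb), *Pcdhgc3* (23.6) and *Pcdhgc4* (19.5) were the most abundant, followed by *Pcdhac2* (11.8). By contrast, the fifth C-type gene, *Pcdhac1*, was at 1.25 CPM per kb, within the range of the alternate alpha genes (0.152 to 2.25).

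Among the alternate genes, the gamma A genes spanned 2.09 to 7.55 CPM per kb, with *Pcdhga11* at the top, and the gamma B genes 0.426 (*Pcdhgb8*) to 4.63. The 21 beta genes that could be tested spanned 0.514 to 3.73 CPM per kb, led by *Pcdhb9*, *Pcdhb17* and *Pcdhb7*. The alternate alpha genes were led by *Pcdha4* and *Pcdha12*. The remaining beta gene, *Pcdhb1*, had 2, 3 and 0 counts in the vehicle libraries and 1, 4 and 3 in the SP libraries. It was at or near the limit of detection in both groups, did not pass the filter on low counts and was not tested.

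**Figure D1:**
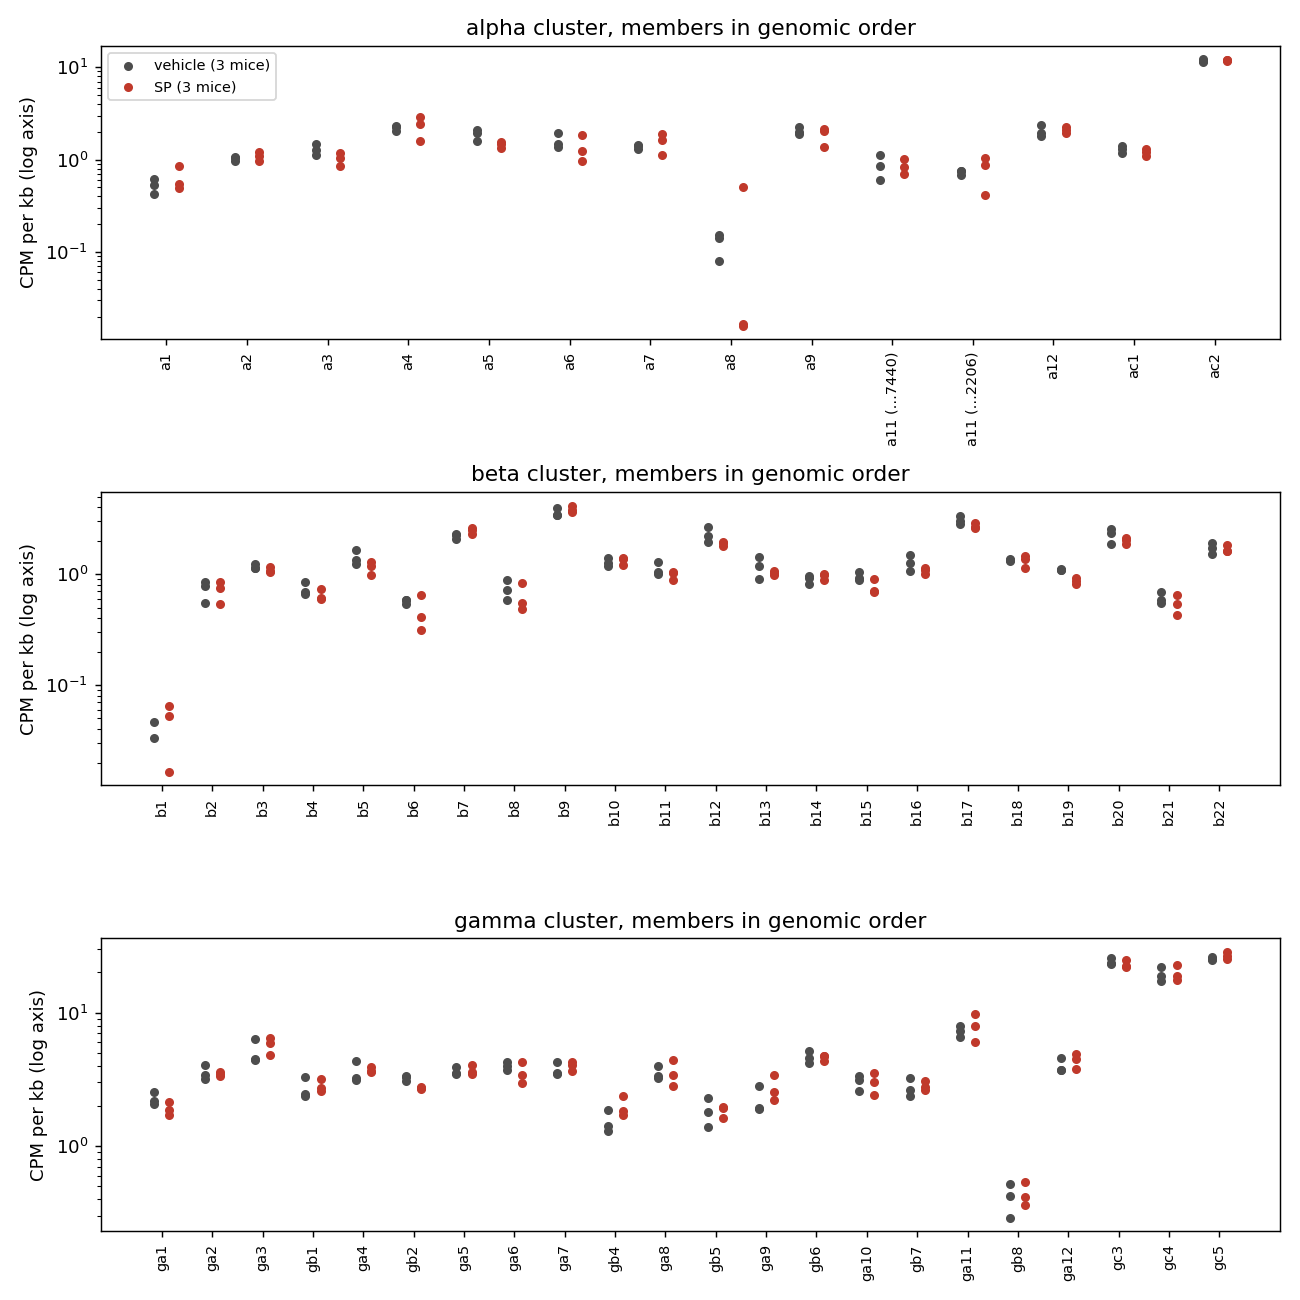
Level of every clustered protocadherin gene in each library, in CPM per kb of the longest annotated transcript on a log axis, with the genes of each cluster in genomic order, vehicle libraries in grey and SP libraries in red. *Pcdhb1* in vehicle 3 is at 0 and cannot be drawn, the C-type genes (ac2, gc3, gc4 and gc5) stand above the alternate genes, and the 2 genes under the symbol *Pcdha11* carry the last digits of their identifiers.

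Whether SP changed any of these genes was tested with edgeR's quasi-likelihood test across all genes. No clustered protocadherin gene met the thresholds for a differentially expressed gene (FDR < 0.1 and |log2FC| > 0.3). These thresholds were met by 0 of 57 tested members, against 0.0293% of all 17069 genes tested (5 genes), and likewise by 0 members in limma-voom and in DESeq2 with or without the replicate block. At an unadjusted p under 0.05 there were 5 members, or 8.77%, against 10.1% of all genes. Of these, 1 member was higher in SP, where the background was 4.48%, and 4 were lower, where it was 5.59%. In 4 of 57 members all 3 SP libraries lay below all 3 vehicle libraries (background 9.03%), in 0 they lay above (background 9.19%), and 18.2% of all genes had such groups in either direction.

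How many members were past this p depended on the fit. Without the replicate block 3 of 57 had an unadjusted p under 0.05, all of them among the 5, against 11.9% of all genes. DESeq2 gave 0 such members with the block, where 2.50% of all genes were past this p, and 3 without it, where 5.04% were. It was run without the filter on low counts, so these shares are over 28039 and 28019 genes and are not comparable with those of edgeR. Leaving out replicate number 1, 2 or 3 gave 6, 8 and 9 such members, of which 1, 2 and 3 were among the 5, against 5.93%, 11.4% and 10.2% of all genes. These fits have 4 libraries, so that a p that misses the threshold says little. The 5 members were picked by p in these same data, and each had the same direction in 3 of 3 pairs. Leaving out 1 pair was therefore bound to keep the sign, which is no sign of stability. The log2 fold changes in these fits ran from −0.52 to −0.23 for *Pcdha5*, −0.40 to −0.29 for *Pcdhb19* and −0.25 to −0.23 for *Pcdhga1*. For *Pcdhgb2* they ran from −0.28 to −0.23 and for *Pcdhgb4* from 0.31 to 0.41.

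In the alpha cluster, log2 fold changes scattered on both sides of 0. Of 14 genes, 8 had a log2 fold change above 0 and 6 below, the median was 0.0065 and that over all genes was 0.0015. The unadjusted p was under 0.05 for 1 gene, *Pcdha5* (start 36960440), with leave-one-out counts of 3, 1 and 2 without replicate 1, 2 and 3.

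*Pcdha5* was at 8.25, 10.1 and 11.0 CPM in vehicle 1 to 3 and at 7.97, 7.68 and 6.96 CPM in SP 1 to 3. The groups did not overlap, although vehicle 1 and SP 1 lay close together. Its log2 fold change of −0.37 ± 0.13 (SE) was the lowest of the cluster (FDR = 0.435). At the other end was *Pcdha1*, the first gene of the cluster, at 3.27, 2.79 and 2.25 CPM in vehicle and 2.56, 4.44 and 2.87 CPM in SP. Only SP 2 lay above all vehicle libraries, and its log2 fold change was 0.23 ± 0.22 (FDR = 0.770), which became −0.0048 without replicate 2.

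The most abundant alternate alpha genes, *Pcdha4* and *Pcdha12*, did not separate the groups either. *Pcdha4* was at 11.0, 12.4 and 12.1 CPM in vehicle and 12.9, 15.4 and 8.62 CPM in SP, so that SP libraries were both the highest and the lowest (log2FC 0.028 ± 0.16, FDR = 0.967). *Pcdha12* was at 12.6, 9.62 and 10.4 CPM in vehicle and 11.9, 11.0 and 10.4 CPM in SP, within the vehicle range (log2FC 0.037 ± 0.097, FDR = 0.926). The values of *Pcdha4* rest on the smallest share of sequence of its own in the family.

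*Pcdha8*, singled out after its values were seen, differed most between single libraries. Its estimated counts were 10.0, 20.4 and 20.8 in vehicle and 1.97, 64.6 and 1.94 in SP. The SP group thus held the highest and the lowest values, and the 95% confidence interval of its log2 fold change, −1.92 to 1.77, was the widest of all members.

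The alpha C-types had overlapping groups. *Pcdhac2*, an isoform that serotonergic axons need to spread out over their targets, was at 67.7, 69.2 and 71.8 CPM in vehicle and 71.1, 68.2 and 70.0 CPM in SP. These values were interleaved, and the 95% interval of its log2 fold change (0.0045 ± 0.055) ran from −0.12 to 0.13. *Pcdhac1* was at 7.69, 6.47 and 7.08 CPM in vehicle and 5.88, 6.97 and 6.60 CPM in SP. Its log2 fold change was −0.12 ± 0.13, with an interval from −0.43 to 0.18.

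In the beta cluster, more genes lay below 0 than above. Of the 21 genes tested, 17 (81.0%) had a log2 fold change below 0, against 49.5% of all genes, and the median was −0.18. These genes are not independent of one another, and no test of the list was made. The unadjusted p was under 0.05 for 1 gene (4.76%), and for 1, 3 and 2 without replicate 1, 2 and 3. Without replicate 3 the median was −0.069, with 14 of 21 genes below 0. Within the replicate pairs, SP was below vehicle for 10, 14 and 18 of 21 genes in replicate 1, 2 and 3, with a median log2 ratio of 0.015, −0.11 and −0.23.

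The gene with the unadjusted p under 0.05 was *Pcdhb19* (37496991 to 37504128). It was at 7.99, 7.80 and 7.80 CPM in vehicle and 5.84, 6.14 and 6.60 CPM in SP, with every SP library below every vehicle library. Its log2 fold change was −0.35 ± 0.11 (FDR = 0.415). *Pcdhb12* was the only other beta gene whose groups did not overlap. It was at 6.75, 5.90 and 8.02 CPM in vehicle and 5.45, 5.77 and 5.88 CPM in SP, where vehicle 2 and SP 3 nearly touched (log2FC −0.26 ± 0.13, FDR = 0.539). *Pcdhb12* lies outside the rule for named genes and was added for its place in this count.

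The largest difference below 0 was in *Pcdhb6*, one of the less abundant beta genes, at 2.02, 2.18 and 2.18 CPM in vehicle and 2.43, 1.16 and 1.53 CPM in SP. SP 1 was the highest of the 6 libraries, and the log2 fold change of −0.36 ± 0.27 had an FDR of 0.688. It was −0.70 without replicate 1, −0.11 without replicate 2 and −0.29 without replicate 3. The largest above 0 was in *Pcdhb7*, at 7.82, 7.19 and 8.13 CPM in vehicle and 8.05, 8.68 and 9.12 CPM in SP. It was higher in SP in 3 of 3 pairs, but SP 1 lay below vehicle 3 (log2FC 0.16 ± 0.10, FDR = 0.647).

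*Pcdhb9* and *Pcdhb17*, the most abundant beta genes, had log2 fold changes of opposite sign. *Pcdhb9* was at 10.5, 10.4 and 12.1 CPM in vehicle and 12.7, 11.0 and 11.6 CPM in SP (log2FC 0.10 ± 0.099, FDR = 0.770). *Pcdhb17* was at 15.7, 13.1 and 14.0 CPM in vehicle and 12.5, 12.0 and 13.5 CPM in SP (log2FC −0.17 ± 0.091, FDR = 0.574). Both had overlapping groups, and *Pcdhb17* was lower in SP in 3 of 3 pairs.

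In the gamma cluster 15 of 22 genes had a log2 fold change above 0 and 7 below, and the median was 0.040. The unadjusted p was under 0.05 for 3 genes (13.6%), 1 higher and 2 lower in SP, for 1 gene without the replicate block, and for 2, 4 and 5 without replicate 1, 2 and 3. Without replicate 2 the median was −0.0031.

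All 3 are alternate genes, of the A and B types that neurons choose from at random. *Pcdhgb4* (start 37720369) was at 6.10, 8.73 and 6.64 CPM in vehicle and 8.57, 11.1 and 8.04 CPM in SP. SP was the higher in each of the 3 pairs, but vehicle 2 was above SP 1 and SP 3. Its log2 fold change of 0.37 ± 0.10 was the highest in the family (FDR = 0.384). In edgeR's quasi-likelihood test its unadjusted p was 0.0087 with the replicate block and 0.051 without it.

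*Pcdhgb2* (start 37689828) was at 15.5, 15.5 and 14.3 CPM in vehicle and 12.7, 12.8 and 12.5 CPM in SP. The groups did not overlap, and the log2 fold change was −0.25 ± 0.081 (FDR = 0.416). *Pcdhga1* (start 37661793), the first gene of the cluster, was at 10.2, 9.66 and 11.9 CPM in vehicle and 8.82, 8.09 and 10.0 CPM in SP. It was lower in SP in 3 of 3 pairs, with SP 3 inside the vehicle range (log2FC −0.24 ± 0.092, FDR = 0.456). Its unadjusted p in the quasi-likelihood test was 0.034 with the block and 0.063 without it.

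The gamma C-types, the most abundant members of the family, overlapped between groups. *Pcdhgc3*, whose protein binds Axin1 and dampens Wnt signaling, was at 109, 109 and 120 CPM in vehicle and 103, 117 and 104 CPM in SP (log2FC −0.063, 95% interval −0.22 to 0.093). *Pcdhgc4*, which is needed for the survival of cortical interneurons, was at 86.9, 94.3 and 111 CPM in vehicle and 114, 88.3 and 94.3 CPM in SP (log2FC 0.021, interval −0.24 to 0.28). *Pcdhgc5*, which binds GABA-A receptor subunits, was at 150, 142 and 145 CPM in vehicle and 145, 165 and 154 CPM in SP (log2FC 0.084, interval −0.062 to 0.23). Over the 5 C-type genes the intervals ran from −0.43 to 0.28, so that a difference larger than these bounds lies outside all of them.

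**Figure D2:**
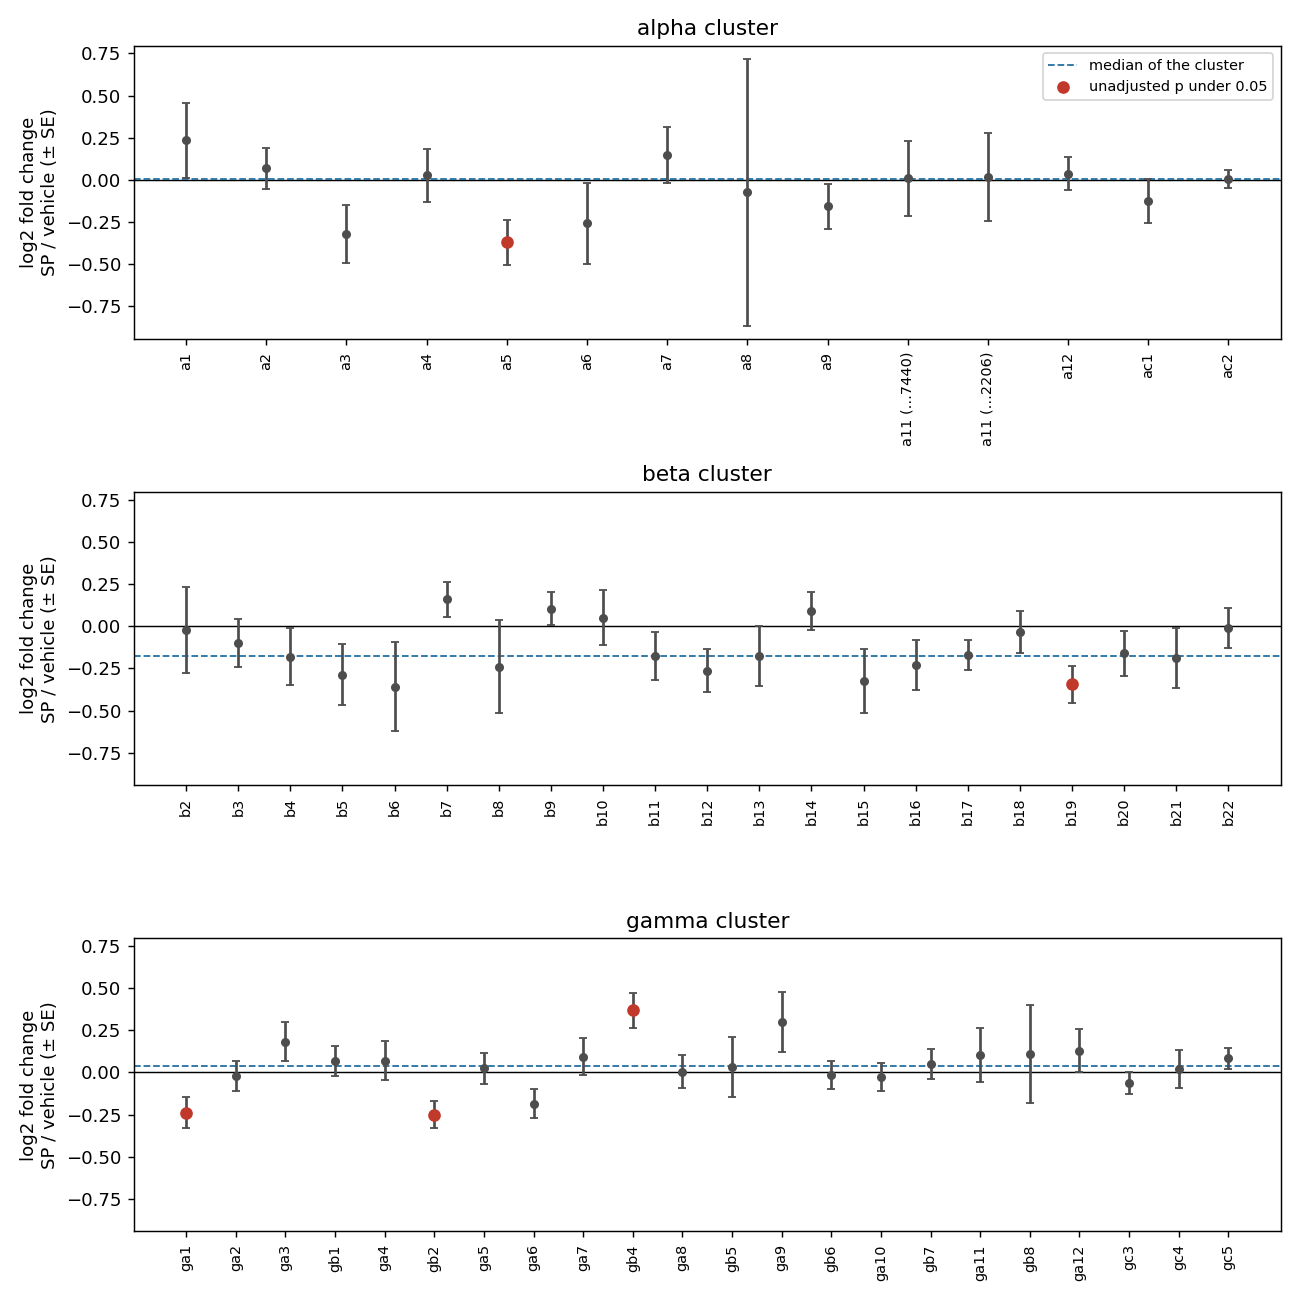
Log2 fold change of SP over vehicle for each of the 57 tested genes in genomic order, with SE bars, from edgeR's quasi-likelihood test with the replicate number as a block. Red marks the 5 genes with an unadjusted p under 0.05 and the dashed line the median of the cluster, which lies at −0.18 for beta and near 0 for alpha (0.0065) and gamma (0.040).

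Because reads of the constant exons are divided between genes, the CPM of each cluster were also summed within libraries. The alpha sum was 157, 160 and 164 CPM in vehicle and 156, 161 and 153.5 CPM in SP (160 ± 3.49 against 157 ± 3.95, SD, n = 3), with overlapping groups. The beta sum was 122, 122 and 132 CPM in vehicle and 120, 114 and 117 CPM in SP (125.5 ± 5.77 against 117 ± 2.63), with every SP library below every vehicle library. The gamma sum was 646, 645 and 671 CPM in vehicle and 660.5, 696 and 649 CPM in SP (654 ± 14.5 against 669 ± 24.7), with overlapping groups.

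On the log2 scale the ratio of SP to vehicle was −0.031 for alpha, −0.10 for beta and 0.032 for gamma. Without replicate 2 the gamma ratio was −0.0077 and the alpha ratio −0.052, and without replicate 3 the ratios were 0.069 for gamma, −0.0020 for alpha and −0.066 for beta. No p is given, since 3 against 3 libraries cannot go below p = 0.1 in a two-sided exact permutation test.

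The shares of the clusters in all counts of the family do not depend on the scaling of the libraries. They were computed after the sums had been seen and add up within each library, so that the 3 shares are not independent of one another. The beta share was 13.2%, 13.2% and 13.7% in vehicle and 12.8%, 11.8% and 12.7% in SP. The alpha share was 16.95%, 17.2% and 16.95% in vehicle and 16.65%, 16.6% and 16.7% in SP. The gamma share was 69.8%, 69.6% and 69.4% in vehicle and 70.6%, 71.65% and 70.6% in SP. None of the 3 shares overlapped between groups, with gamma higher and alpha and beta lower in SP. The mean gamma share was 69.6% ± 0.232 in vehicle and 70.9% ± 0.618 in SP (SD, n = 3).

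Within the clusters the balance of C-type and alternate genes overlapped between groups. C-type genes took 47.3% to 48.1% of alpha counts in vehicle and 46.6% to 49.96% in SP, and 53.6% to 55.96% of gamma counts in vehicle against 53.1% to 54.8% in SP. *Pcdhgc5* alone took 21.6% to 23.2% of gamma counts in vehicle and 21.9% to 23.8% in SP.

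**Figure D3:**
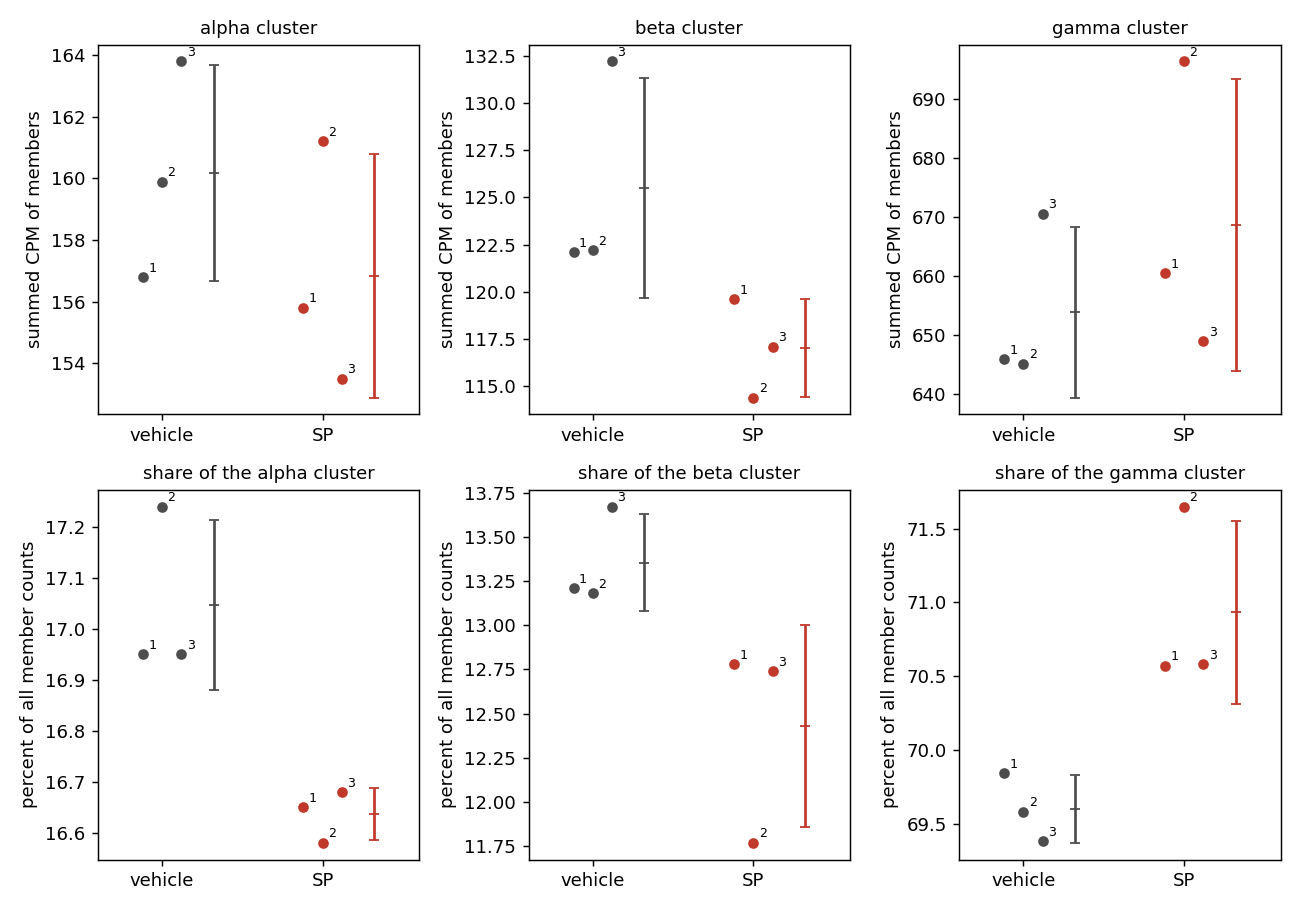
Summed CPM of each cluster (top) and its share of all clustered protocadherin counts in percent (bottom) in each library, with replicate numbers beside the points and bars for the mean ± SD of 3 libraries. The axes do not start at 0, the groups are separate in the beta sum and in all 3 shares, and SP 2 is the library farthest from the others in the gamma sum.

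Sums of some cell type markers also separated the groups, beside the beta values. The first 4 lists given here were picked because they separated, out of a larger number of marker lists. Over all genes, 4.48% were higher and 5.59% lower in SP at an unadjusted p under 0.05 in the quasi-likelihood test. The summed level of 8 neocortical neuron markers was 179 to 199 CPM in vehicle and 128 to 168 CPM in SP, with 6 of 8 lower at an unadjusted p under 0.05. The 8 oligodendrocyte markers summed to 2168 to 2487 CPM in vehicle and 2512 to 3621 CPM in SP, with 6 of 8 higher. The 8 hippocampal principal cell markers summed to 736 to 769 CPM in vehicle and 773 to 909 CPM in SP, with 4 of 8 higher. The 8 markers of immature neurons and progenitors summed to 315 to 319 CPM in vehicle and 245 to 290 CPM in SP, with 1 higher and 2 lower. The 1 higher was *Eomes* (log2FC 0.55 ± 0.21, FDR = 0.458), and *Dcx* (−0.43 ± 0.11, FDR = 0.348) and *Stmn1* (−0.25 ± 0.057, FDR = 0.335) were the 2 lower. Of these 8 markers, 4 had a log2 fold change above 0 and 4 below, with a median of 0.027. Most of the sum was *Stmn1*, with a mean of 219 CPM in vehicle and 185 CPM in SP. No marker of these 4 lists met the thresholds for a differentially expressed gene, and none was at 0. The sums of 8 general neuron markers, at 5932 to 5945 CPM in vehicle and 5933 to 6063 CPM in SP, overlapped. The part of these markers in the protocadherin values was not tested.

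The 2 libraries that stood apart in markers were left out in turn, in fits without the block that were added after seeing the data. Without SP 1 there were 8 members with an unadjusted p under 0.05 and without SP 2 there were 5, with 4 and 3 of the original 5 among them, against 10.5% and 11.5% of all genes. The beta median was −0.18 without SP 1 and −0.12 without SP 2, with 16 of 21 genes below 0 in either case, and the beta sum kept a log2 ratio of −0.12 and −0.085. No member met the thresholds in either.

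Most alternate alpha genes had a spread, left after the group and the replicate number were fitted, above the trend for genes of their abundance. For alpha and gamma genes this spread also holds any error in dividing shared reads, and the part of that error was not tested. The biological coefficient of variation is the spread left after counting error, the group and the replicate number. Differences that same-numbered libraries share are therefore not part of it. It lay above the trend over all genes for 10 of 12 alternate alpha genes (83.3%), 7 of 12 gamma A genes, 2 of 7 gamma B genes, 7 of 21 beta genes and 2 of 5 C-type genes. Over all genes this share was 25.0%, and over the family 49.1%. Among the genes far above the trend were *Pcdha8* (0.592 against 0.207), *Pcdhga11* (0.139 against 0.0752) and *Pcdha6* (0.204 against 0.113), chosen here for their spread. The median ratio of the highest to the lowest of the 6 libraries was 1.71 for alpha, 1.39 for gamma, 1.445 for beta and 1.16 for C-type genes.

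**Figure D4:**
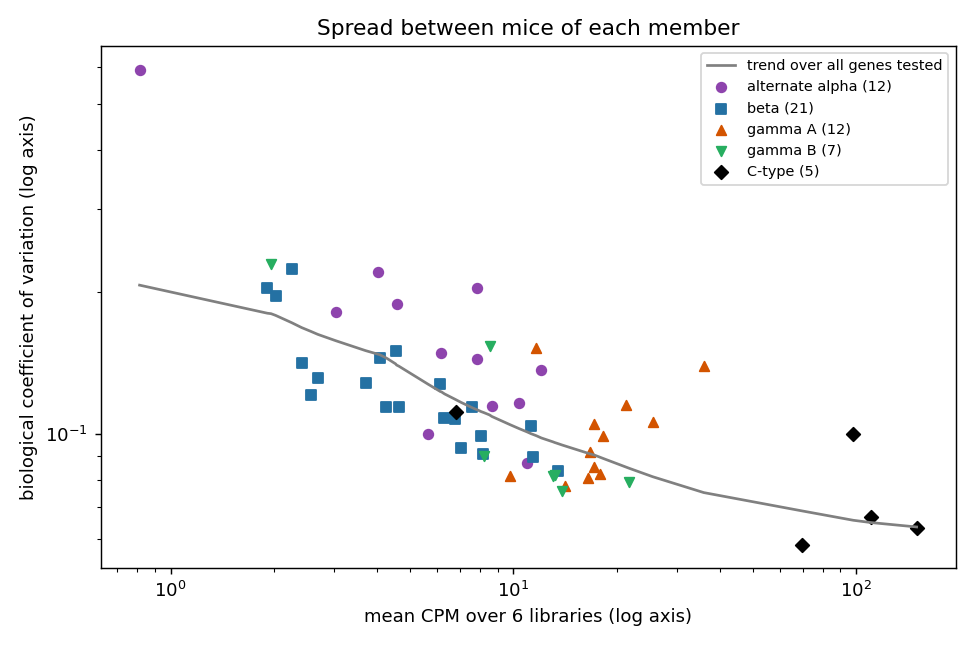
Biological coefficient of variation of each tested gene against its mean CPM over 6 libraries, both on log axes, by class of gene, with the trend over all genes as a line. Purple points (alternate alpha) lie above the line for 10 of 12 genes and blue squares (beta) for 7 of 21.

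Across 36 alpha and gamma genes, Spearman's rho between the share of 31-base words that a gene has to itself and its coefficient of variation relative to the trend was −0.040 (Pearson's r −0.17). These genes share libraries and reads, so the value is a description. Spearman's rho between genomic order and log2 fold change was −0.14 over 14 alpha, −0.040 over 21 beta and 0.21 over 22 gamma genes. Single libraries held many of the extremes. SP 2 was the highest of the 6 libraries for 9 of 22 gamma and 5 of 14 alpha genes, and the lowest for 7 of 21 beta genes. Vehicle 3 was the highest for 7 of 21 beta genes. Such counts were not made over all genes, so these are not a result about the members.

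Genes that act with the clustered protocadherins were described from 4 lists. Of 21 genes of promoter choice and cluster chromatin, 0 had an unadjusted p under 0.05 in the quasi-likelihood test, against 10.1% of all genes. The median log2 fold change was −0.0053. *Ctcf*, which loops enhancers to the chosen promoters, was at 69.2, 74.0 and 70.5 CPM in vehicle and 74.6, 71.1 and 69.5 CPM in SP (log2FC 0.010 ± 0.058), and was added to the named genes for its role. The lowest p-values of the list belonged to the histone methyltransferase genes *Ehmt1* (log2FC 0.14 ± 0.079, FDR = 0.595) and *Ehmt2* (0.082 ± 0.051, FDR = 0.629).

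Of 20 genes of binding partners and signaling, 1 was higher and 1 lower at an unadjusted p under 0.05, against 4.48% and 5.59% of all genes. The median log2 fold change was 0.071, with 15 genes above 0 and 5 below. The groups did not overlap for 5 genes that were higher and 1 that was lower in SP, against 9.19% and 9.03% of all genes. In the list of promoter choice and chromatin such genes numbered 1 higher and 1 lower of 21. Among solitary protocadherins they numbered 1 and 4 of 12, and among cadherins and catenins 0 and 4 of 20. *Marcks*, an actin-binding target of protein kinase C that gamma protocadherins act on during dendrite growth, was at 140, 130 and 144 CPM in vehicle and 127, 105 and 126.5 CPM in SP, with no overlap (log2FC −0.21 ± 0.055, FDR = 0.351). *Ptk2b*, the kinase Pyk2 that protocadherin tails bind and inhibit, was at 755, 784 and 785 CPM in vehicle and 881, 1035 and 809 CPM in SP, also with no overlap (log2FC 0.22 ± 0.078, FDR = 0.432).

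Relatives outside the clusters were described in the same way. Of 12 solitary protocadherins, 1 was higher and 3 lower at an unadjusted p under 0.05, against 4.48% and 5.59% of all genes. The median log2 fold change was −0.052. *Pcdh7* was at 86.2, 84.9 and 80.2 CPM in vehicle and 70.7, 60.35 and 78.2 CPM in SP (log2FC −0.27 ± 0.086, FDR = 0.415). *Pcdh15*, a part of the tip links of hair cells, was at 22.4, 23.2 and 24.2 CPM in vehicle and 18.8, 14.4 and 22.1 CPM in SP (log2FC −0.35 ± 0.11, FDR = 0.415). In both, all SP libraries lay below all vehicle libraries and SP 2 was the lowest. Leaving out replicate 2 gave −0.16 for *Pcdh7* and −0.19 for *Pcdh15*, and leaving out replicate 3 gave −0.39 and −0.47. The others, given to complete the count, were *Pcdh10* (log2FC −0.20 ± 0.072, FDR = 0.440) and *Pcdh1* (0.20 ± 0.065, FDR = 0.417).

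Of 20 classical cadherins and catenins, 0 were higher and 4 lower at an unadjusted p under 0.05, against 4.48% and 5.59% of all genes. Their median log2 fold change was −0.063. *Cdh20* was at 18.1, 17.2 and 16.15 CPM in vehicle and 14.8, 14.2 and 13.25 CPM in SP (log2FC −0.28 ± 0.077, FDR = 0.367). *Cdh13*, a cadherin with a lipid anchor in place of a transmembrane part, was at 63.9, 59.9 and 61.9 CPM in vehicle and 51.0, 36.15 and 59.4 CPM in SP (log2FC −0.37 ± 0.12, FDR = 0.412). Neither gene overlapped between groups, and SP 2 was the lowest library for *Cdh13*, whose log2 fold change was −0.19 without replicate 2 and −0.53 without replicate 3. *Cdh6* (−0.31 ± 0.12) and *Cdh7* (−0.39 ± 0.14) complete the count. None of the 73 genes of the 4 lists met the thresholds. Over the lists, 10 of 73 genes were at an unadjusted p under 0.05, against 10.1% of all genes. DESeq2 gave 7 with the block, against 2.50% of all genes, and 11 without it, against 5.04%. Its shares are over 28039 and 28019 genes, including low-count genes that the 10.1% leaves out. The 7 and 11 therefore have no matching share beside them. *Pcdh15* and *Cdh13* met the thresholds when no filter on low counts was used (FDR = 0.0949 and 0.0435).

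**Figure D5:**
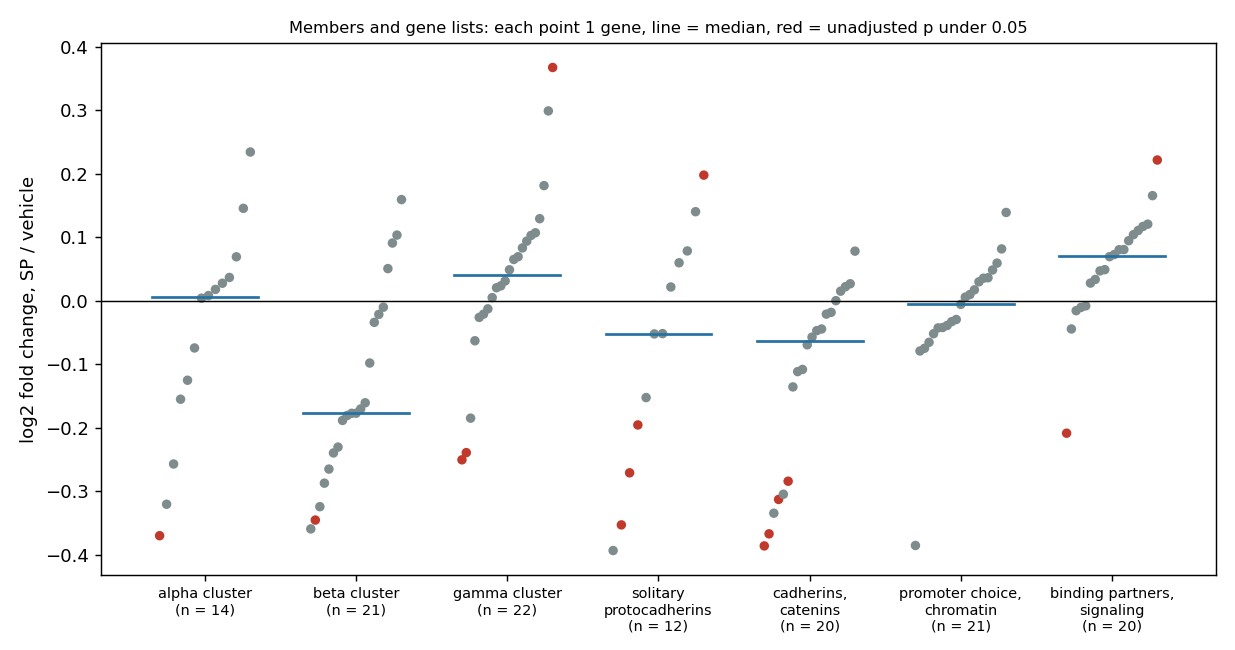
Log2 fold change of SP over vehicle for each tested gene of the 3 clusters and of the 4 lists of related genes, sorted within each column, with a blue line at the median and genes with an unadjusted p under 0.05 in red. The beta cluster has the lowest median of the 7 columns (−0.18), with 1 gene in red, and the cadherin list has 4 of 20 genes in red, all below 0.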

How the data were processed

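Per the labels and the methods of the study, total RNA was extracted with Trizol and libraries were made with the TruSeq stranded mRNA kit. The authors used Trim Galore for trimming, STAR with GRCm38 for alignment and Salmon for quantification, and deposited estimated counts per gene, unscaled for depth or length. The annotation release was not given in the sources used here. Salmon divides reads shared by several genes by a model, so counts of alpha and gamma genes are estimates of a division.

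Counts were rounded and tested in R 4.3.3 with edgeR 4.0.16 (filterByExpr with minimum count 10 and minimum total 15, TMM, glmQLFTest after glmQLFit). The model held the replicate number as a block, as the study adjusted for replicates. FDR is the Benjamini-Hochberg adjusted p over 17069 genes. The SE is the absolute log2 fold change divided by the square root of F, and intervals are at 95%. Members and lists were chosen with earlier results of these data known. Named genes are the C-types, the 3 highest per kb and the largest differences of each cluster, every member with an unadjusted p under 0.05, and the 2 lowest p-values of each list. The others named are marked as added. The labels call the replicate number a batch, and the model took it to pair the mice. Deviations of same-numbered libraries from their group means correlated at 0.014, −0.066 and 0.073 over all genes and 0.14, 0.11 and −0.20 over 57 members. Alternatives used limma 3.58.1, DESeq2 1.42.0, other scalings, filters and fewer libraries. Positions and 31-base words came from GENCODE M21.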

Additional observations from a re-analysis of the deposited data

How the results depend on the processing

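No alternative brought a clustered protocadherin gene past the thresholds. The beta median stayed between −0.18 and −0.17 under other filters, scalings and tools, and between −0.16 and −0.069 when a replicate number was left out. The range without a replicate number was −0.090 to 0.065 for the alpha median and −0.0031 to 0.043 for the gamma median. Over all genes, 5 met the thresholds. There were 2 without the replicate block, 384 with no filter on low counts, 0 with at least 10 counts in every library, 38 in DESeq2 with the block, 116 in DESeq2 without it, 2 in limma-voom, and 9 to 36 when a replicate number was left out. Members with an unadjusted p under 0.05 numbered 1, 1 and 3 in alpha, beta and gamma. Gamma had 1 without the replicate block in edgeR and in DESeq2, and DESeq2 with the block gave 0, 0 and 0. With no filter alpha had 2, beta 1 and gamma 4. Leaving out a replicate number gave 1 to 3, 1 to 3 and 2 to 5, and leaving out SP 1 or SP 2 alone gave alpha 2 and 2, with beta 3 without SP 1. Members with separate groups numbered 4 of 57, against 18.2% of all genes. They numbered 18 to 21 without a replicate number, and 12 and 8 without SP 1 and SP 2, as fewer libraries separate more easily. The share over all genes was not computed for these smaller sets, so these counts are not a result about the members. Besides these counts, removing the block changed no call of a member.

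Several log2 fold changes near 0 took the other sign. *Pcdhac2* was at −0.0018 with no filter and −0.0017 with at least 10 counts in every library. When a replicate number was left out, the values ran from −0.028 to 0.021 for *Pcdhac2*, −0.12 to 0.27 for *Pcdha4* (−0.073 without replicate 1), −0.24 to 0.0040 for *Pcdhac1*, −0.16 to 0.14 for *Pcdhgc4*, −0.0048 to 0.52 for *Pcdha1*, −0.042 to 0.096 for *Pcdha12* and −0.14 to 0.0050 for *Pcdhgc3*. Without SP 1 alone, chosen after seeing the data, *Pcdha12* was at −0.024, *Pcdhac2* at −0.014 and *Pcdhgc4* at −0.097. Without SP 2 alone, *Pcdha1* was at −0.023 and *Pcdha4* at −0.14. The cause of these shifts was not tested. At 20481 to 26639 member counts per library, alpha genes had intervals as wide as −1.92 to 1.77.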
